A study of Homo sapiens with 24 samples.

Results

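SKBR3 cells made senescent by a block of fatty acid synthesis were compared here with SKBR3 cells made senescent by low-dose doxorubicin. The libraries were taken by their labels, 3 of TVB-3166 cells and 3 of doxorubicin cells, which are 6 of the 24 RNA-seq libraries of the study. The study asked how senescence induced by inhibitors of fatty acid synthesis differs from other forms of therapy-induced senescence, and it sequenced 8 groups of 3 libraries. SKBR3 is a breast cancer cell line with an amplified ERBB2 (HER2) gene and high levels of lipogenic enzymes. TVB-3166, an inhibitor of fatty acid synthase (FASN), was given at 250 nmol/L, and doxorubicin at 10 nmol/L. In both groups the drug was given again on day 3, and the cells were collected on day 7. The reference level for both drugs was taken from 3 libraries of untreated cells that had also been cultured to day 7. The labels name a refeed on day 3 for both drugs and none for these untreated cells. The part of refeeding in the values over untreated cells was not tested. Each drug was sequenced at 1 dose in 1 line, and the labels do not say whether replicates came from separate cultures, so the p-values measure the spread between these libraries.

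FASN makes palmitate from acetyl-CoA and malonyl-CoA, and its product enters membrane lipids, stored triglycerides and lipid ligands of nuclear receptors. Doxorubicin traps topoisomerase II on DNA and causes double-strand breaks, which start the DNA damage response. Cells that survive either kind of stress can leave the cell cycle, enlarge, gain lysosomal mass and change what they secrete, a state called senescence. Sterol-regulated transcription factors (SREBP) switch on sterol and fatty acid enzymes when membrane sterol falls, LXR switches on sterol export, and PPAR receptors switch on the use of fatty acids as fuel.

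The gene table held read counts for 14493 genes, none with a count under 1 in any library, and genes without a row are not analysed here. Total counts lay between 29626473 and 31455795 in TVB-3166 cells and between 30696139 and 40842973 in doxorubicin cells. On the log2 scale, the Euclidean distance between libraries was 21.5 to 26.3 within the TVB-3166 group, 20.5 to 27.5 within the doxorubicin group and 50.6 to 60.3 between the groups. Of 7 markers chosen for SKBR3 identity, 6 were in the table, and CDH1 was not. ERBB2 had 8828, 7482, and 8502 CPM (counts scaled to library size and composition) in the TVB-3166 libraries and 6157, 5606, and 5400 CPM in the doxorubicin libraries, with no overlap. GRB7, which is amplified with ERBB2, was also present in both groups, and KRT8 (-0.10), KRT18 (-0.04), KRT19 (0.11) and EPCAM (-0.13) did not pass the test between the drugs (log2 fold changes). Of 14 leukocyte markers 2 were in the table (CD68 and CSF1R), and of 12 fibroblast and endothelial markers 3 were (COL1A1, VWF and CDH5). PTPRC, the pan-leukocyte marker, and PECAM1, an endothelial marker, had no row. Those 3 markers summed to 16.8 to 20.9 CPM in TVB-3166 cells and 45.8 to 55.5 CPM in doxorubicin cells. Most of the sum in doxorubicin cells was CDH5. Between the drugs, 2 of the 3 were lower with TVB-3166 (median log2 fold change -2.18), and 1, at 0.36, did not pass. The part of other cells in these values was not tested. In bulk RNA, fewer cells that use a gene and less of its RNA per cell cannot be told apart.

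The drugs left these cells with transcriptomes that differed at many genes, most of them by less than 2-fold. Of 13857 genes tested, 2988 were higher in TVB-3166 than in doxorubicin cells (21.6%) and 3178 were lower (22.9%) at an adjusted p under 0.05. Of these, 424 were at least 2-fold higher (3.06%) and 816 at least 2-fold lower (5.89%). The median log2 fold change over all genes tested was 0.00 in this comparison, and also 0.00 for each drug against untreated cells. Genes of sterol synthesis, LXR targets and the ATF4 stress response lay mostly on the TVB-3166 side, and genes of the cell cycle, DNA repair and ribosome assembly lay mostly on the doxorubicin side. Throughout, a positive log2 fold change is a higher level in TVB-3166 cells, and the shares of all genes just given are the background against which each list is read. At an unadjusted p under 0.05 those shares were 25.3% higher and 26.4% lower.

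Among genes with at least 5 CPM in the higher group and no overlap between the libraries, the 10 with the largest positive differences ran from DNER to C19orf33. DNER, a Notch ligand of neurons, had 8.87, 8.73, and 8.56 CPM in TVB-3166 cells, 1.00, 0.798, and 0.816 CPM in doxorubicin cells and 1.54, 1.22, and 2.20 CPM in untreated cells. All 3 TVB-3166 libraries stood above all 6 others, with a log2 fold change between the drugs of 3.31 ± 0.19 (SE, adjusted p = 1.92e-07). ST6GALNAC2, a sialyltransferase of O-glycans, had 22.3, 15.3, and 17.7 CPM against 3.40, 2.57, and 1.94 CPM, a log2 fold change of 2.79 ± 0.20 (SE, adjusted p = 9.25e-07). CEACAM5, the carcinoembryonic antigen at the cell surface, reached 46, 51.9, and 58.3 CPM after TVB-3166, against 8.83, 9.66, and 8.22 CPM after doxorubicin and 4.50, 5.10, and 3.03 CPM in untreated cells. Both drugs raised CEACAM5 over untreated cells, TVB-3166 by 3.63 and doxorubicin by 1.10 on the log2 scale, and the drugs differed by 2.55 ± 0.11 (SE, adjusted p = 3.10e-08). ID4, an inhibitor of helix-loop-helix factors, moved to either side of the untreated level, by 1.03 with TVB-3166 and -1.70 with doxorubicin on the log2 scale. TSPAN1, a tetraspanin, had 436, 348, and 428 CPM against 84.8, 67, and 74 CPM (2.42 ± 0.11 SE, adjusted p = 3.23e-08). The remaining genes of this group were KRT86 (2.44), MUC19 (2.32), ABCG1 (2.29), PIP (2.23) and C19orf33 (2.23). With a floor of 100 CPM, STARD4 and the netrin receptor UNC5B joined them, with log2 fold changes of 2.22 and 2.17.

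The largest negative differences were wider. ANGPTL4, a secreted inhibitor of lipoprotein lipase, had 0.335, 0.474, and 0.308 CPM in TVB-3166 cells, 10.2, 13.2, and 9.52 CPM in doxorubicin cells and 11.5, 10.2, and 8.34 CPM in untreated cells. The doxorubicin and untreated libraries overlapped, and the TVB-3166 libraries lay far under both (-4.86 ± 0.24 SE, adjusted p = 4.89e-08). GJA5, the gap junction protein connexin 40, showed the same arrangement, with 1.44, 1.39, and 0.788 CPM against 32.6, 30.8, and 37 CPM and 36.3, 48.5, and 34.3 CPM in untreated cells (-4.79 ± 0.18 SE, adjusted p = 1.08e-08). SAA1, an acute-phase apolipoprotein, had 8.20, 5.96, and 8.74 CPM with doxorubicin, against 0.569, 0.728, and 0.582 CPM with TVB-3166 and 0.287, 0.405, and 0.119 CPM in untreated cells. Every doxorubicin library of SAA1 lay above all others (-3.60 ± 0.24 SE, adjusted p = 4.34e-07), while the TVB-3166 value over untreated, 1.20, lost its call when any 1 of 4 libraries was left out. MMP13, a collagenase, and SCN8A, a sodium channel, were likewise raised by doxorubicin, by 2.37 and 4.13 on the log2 scale, while TVB-3166 against untreated gave -1.21 and 0.57, of which the first passed the test, though not without untreated replicate 2 or 3 or TVB-3166 replicate 1 or 3, and the other did not. The difference between the drugs was -3.55 ± 0.24 (SE, adjusted p = 4.70e-07) for MMP13 and -3.54 ± 0.29 (SE, adjusted p = 1.91e-06) for SCN8A. BPIFA4P, an unprocessed pseudogene whose counts may be shared with its relatives, and NKX1-2, a homeobox gene, had log2 fold changes of -4.62 and -3.62. Of the other members of this group, CYP1A2 and PDK4 are described with their pathways. Above 100 CPM the largest negative differences included those of CYP1A1 (-3.39), the scavenger receptor OLR1 (-2.68), the growth factor binding protein IGFBP5 (-2.59) and the matrix protein THBS1 (-1.88).

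**Figure D1:**
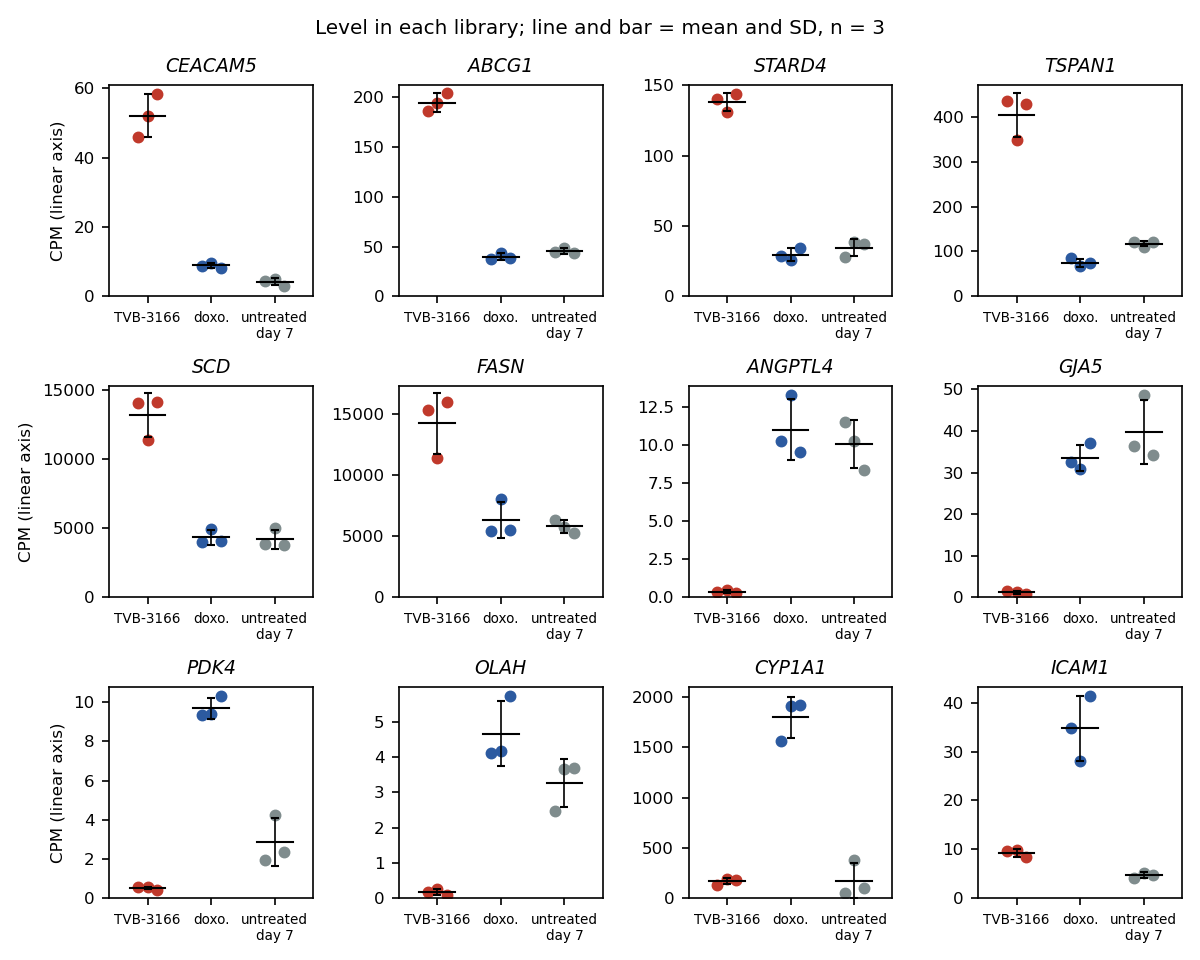
CPM of 12 genes in the 3 TVB-3166, 3 doxorubicin and 3 untreated day-7 libraries (points; linear axis from 0), with mean and SD. In the first 6 panels the TVB-3166 libraries stand above the other 6; ANGPTL4, GJA5, PDK4 and OLAH are lowest with TVB-3166, and CYP1A1 and ICAM1 highest with doxorubicin.

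The drug targets themselves differed. FASN, the target of TVB-3166, had 15340, 11360, and 15960 CPM in TVB-3166 cells, 5400, 8048, and 5495 CPM in doxorubicin cells and 6341, 5751, and 5286 CPM in untreated cells. The doxorubicin and untreated libraries overlapped, and all 3 TVB-3166 libraries lay above them, with a log2 fold change of 1.17 ± 0.17 (SE, adjusted p = 1.39e-04) over doxorubicin and 1.30 ± 0.13 (SE, adjusted p = 1.79e-05) over untreated cells. TOP2A, the topoisomerase II of dividing cells and a doxorubicin target, had 417, 313, and 347 CPM with TVB-3166, 556, 529, and 615 CPM with doxorubicin and 735, 821, and 769 CPM without drug. Both drugs were under the untreated level, and TVB-3166 cells lay 0.66 ± 0.11 on the log2 scale lower than doxorubicin cells (adjusted p = 3.96e-04). TOP2B, the form present in resting cells, differed by -0.43 ± 0.08 (SE, adjusted p = 6.76e-04). ABCG2, an efflux pump that carries anthracyclines, had 23.8, 18.6, and 19.8 CPM with TVB-3166 against 83.7, 66, and 93.2 CPM with doxorubicin (-1.97 ± 0.13 SE, adjusted p = 4.34e-07); over untreated cells it was 0.46 with doxorubicin and -1.53 with TVB-3166. Of 22 tested genes for doxorubicin targets, carbonyl reductases and transporters, 5 were higher and 8 lower in TVB-3166 cells, with a median of -0.13; AKR1A1, an aldehyde reductase, was among the higher ones (1.03) and TOP3A among the lower ones (-0.49).

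The RNA of cholesterol synthesis enzymes was higher in TVB-3166 cells at nearly every step. All 20 enzymes of the list were tested, and 19 were higher in TVB-3166 cells, none was lower, and 1 did not pass; the list median was 1.05. At an unadjusted p under 0.05, and with DESeq2 in place of edgeR, 19 were again higher and 0 lower. All 24 libraries in 1 fit gave 16 higher, and leaving out 1 library gave 17 to 19, with 0 lower each time. The list median was 0.79 without TVB-3166 replicate 1. FDPS, which makes farnesyl diphosphate, had 1157, 494, and 721 CPM in TVB-3166 cells, against 182, 186, and 163 CPM in doxorubicin cells and 203, 184, and 192 CPM in untreated cells. The doxorubicin and untreated libraries overlapped, and every TVB-3166 library lay above them (2.16 ± 0.22 SE, adjusted p = 1.08e-05). IDI1, which makes the isoprenoid building block, had 968, 607, and 713 CPM against 239.7, 243, and 253 CPM (1.64 ± 0.14 SE, adjusted p = 2.48e-06). MSMO1, a C4 sterol demethylase, had 667, 385, and 495 CPM against 173, 143, and 172 CPM (1.66 ± 0.16 SE, adjusted p = 6.17e-06), and LSS, which closes the sterol rings, 314, 193, and 279 CPM against 98.5, 99.99, and 103 CPM (1.38 ± 0.14 SE, adjusted p = 8.27e-06). In all of FDPS, IDI1, MSMO1 and LSS, TVB-3166 replicate 1 was the highest and replicate 2 the lowest of its group, so the spread within the group was shared across the pathway. Along the mevalonate arm the log2 fold change was 1.47 for HMGCS1, 0.61 for MVK, 0.44 for PMVK and 1.99 for MVD. After squalene it was 0.88 for SQLE, 0.81 for CYP51A1, 1.20 for TM7SF2, 1.34 for HSD17B7 and 0.65 for DHCR7. Against untreated cells, 16 of 20 were higher and 0 lower in TVB-3166 cells (median 1.26), where 25.4% of all genes tested were higher and 26.1% lower. The corresponding counts in doxorubicin cells were 8 higher and 4 lower of 20, median 0.07, with 21.9% of all genes higher and 21.5% lower; both comparisons use the same untreated libraries.

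Regulators of sterol uptake were also higher. Of 14 genes of SREBP control and LDL uptake, 9 were higher in TVB-3166 cells and 1 was lower (median 0.56). STARD4, a carrier of cholesterol between membranes, had 139.9, 131, and 144 CPM against 28.5, 25.9, and 34.5 CPM (2.22 ± 0.10 SE, adjusted p = 3.23e-08). INSIG1, which holds SREBP in the endoplasmic reticulum, had 422, 258, and 349 CPM against 97.8, 102, and 110.3 CPM (1.73 ± 0.14 SE, adjusted p = 1.90e-06). SREBF1, which encodes SREBP-1, had 2566, 2096, and 2768 CPM against 1055, 1155, and 1057 CPM (1.19 ± 0.11 SE, adjusted p = 5.66e-06), while SREBF2 differed by 0.53. NPC2, the lysosomal cholesterol carrier, differed by 1.19 ± 0.09 (SE, adjusted p = 1.10e-06), and the 1 lower gene was SOAT1, which esterifies cholesterol (-0.36); SOAT1 did not pass without TVB-3166 replicate 2, doxorubicin replicate 1 or doxorubicin replicate 3 (-0.24 to -0.36). Sterol export genes were also on the TVB-3166 side, with 8 of 11 genes of the LXR list higher and 1 lower (median 0.63). ABCG1, the exporter of cholesterol to lipoprotein particles, had 186, 194, and 204 CPM in TVB-3166 cells, 37.3, 43.9, and 38.2 CPM in doxorubicin cells and 44.4, 48.8, and 43.5 CPM in untreated cells. The doxorubicin and untreated libraries overlapped, and the TVB-3166 libraries lay above both (2.29 ± 0.09 SE, adjusted p = 1.08e-08). LPCAT3, which puts polyunsaturated chains into phospholipids, differed by 1.08 ± 0.12 (SE, adjusted p = 1.80e-05), PLTP by 0.97 ± 0.13 (SE, adjusted p = 7.05e-05) and MYLIP, a ubiquitin ligase of the LXR response, by 0.63 ± 0.08 (SE, adjusted p = 5.00e-05). The exception was APOE, at 4.05, 2.72, and 3.29 CPM with TVB-3166 and 8.34, 6.59, and 8.59 CPM with doxorubicin (-1.23 ± 0.19 SE, adjusted p = 2.13e-04); doxorubicin had raised it over untreated cells by 1.51.

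Where fatty acid synthesis enzymes differed between the drugs, most were higher in TVB-3166 cells. Of 25 tested, 12 were higher and 3 lower in TVB-3166 cells (median 0.21). ACSS2, which makes acetyl-CoA from acetate, had 528, 283, and 421 CPM against 90.5, 113, and 84.5 CPM (2.1 ± 0.18 SE, adjusted p = 3.10e-06). SCD, the delta-9 desaturase, had 14120, 11380, and 14130 CPM against 4000, 4942, and 4072 CPM (1.61 ± 0.13 SE, adjusted p = 1.48e-06). MID1IP1, an activator of acetyl-CoA carboxylase, was higher with TVB-3166 by 0.75 ± 0.09 (SE, adjusted p = 2.24e-05). The carboxylases went opposite ways: ACACA, the cytosolic form, had 262, 186, and 245 CPM against 167, 191, and 199 CPM (0.31 ± 0.12 SE, adjusted p = 0.0461), with overlapping libraries, and ACACB, the form at mitochondria, had 21.5, 23.6, and 26 CPM against 34.3, 45.1, and 38.8 CPM (-0.73 ± 0.11 SE, adjusted p = 2.48e-04). ACACA did not pass without TVB-3166 replicate 1, TVB-3166 replicate 3, doxorubicin replicate 1 or doxorubicin replicate 2 (0.22 to 0.33). OLAH, the thioesterase that releases medium-chain fatty acids from FASN, had 0.167, 0.253, and 0.103 CPM against 4.10, 4.16, and 5.71 CPM, and its untreated libraries had 2.47, 3.65, and 3.68 CPM (-4.70 ± 0.33 SE, adjusted p = 6.56e-07). The third lower gene was FADS3 (-0.92), and none of the elongases ELOVL1, ELOVL5, ELOVL6 and ELOVL7 passed the test between the drugs.

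Some targets of PPAR receptors were far lower with TVB-3166, and others were not. Of 19 tested, 4 were higher and 7 lower than in doxorubicin cells, with a median of -0.12 (-0.03 without doxorubicin replicate 2). PDK4, the kinase that switches off pyruvate dehydrogenase, had 0.569, 0.569, and 0.445 CPM with TVB-3166, 9.37, 9.38, and 10.3 CPM with doxorubicin and 1.96, 4.26, and 2.35 CPM without drug. The 3 groups did not overlap, and the untreated level lay between the drugs (-4.19 ± 0.20 SE, adjusted p = 3.79e-08). CPT1A, the entry enzyme of mitochondrial fatty acid oxidation, had 109.5, 117, and 124 CPM with TVB-3166 against 306, 299, and 327 CPM with doxorubicin (-1.41 ± 0.08 SE, adjusted p = 2.50e-07). The lipid droplet coat gene PLIN2 was also lower, by 2.22 ± 0.20 on the log2 scale, and the fatty acid carrier FABP5 by 2.40 ± 0.36. ACAA2 was another of the 7 lower genes (-0.48). The 4 higher genes were TXNIP (1.10), UCP2 (0.74), ACOT1 (0.65) and ACOT2 (0.49). The oxidation enzymes CPT2, ACADVL, ACADM, HADHA and HADHB gave values between -0.12 and 0.03 and did not pass. Of 15 triglyceride and lipid droplet genes, 3 were higher and 1 lower (median 0.15, or 0.06 without TVB-3166 replicate 1 or 2 and -0.0015 without doxorubicin replicate 3), with DGAT1, of the last step of triglyceride synthesis, at 0.49, LPIN3 at 0.83, FITM2 at 0.23 and DGAT2 at -0.56. FITM2 did not pass without TVB-3166 replicate 1, TVB-3166 replicate 3, doxorubicin replicate 1, doxorubicin replicate 2 or doxorubicin replicate 3 (0.19 to 0.24), and DGAT2 did not pass without TVB-3166 replicate 1, TVB-3166 replicate 2, doxorubicin replicate 1 or doxorubicin replicate 3 (-0.46 to -0.56). SLC25A34, a mitochondrial carrier, was lower as well (-3.71 ± 0.29 SE, adjusted p = 1.46e-06).

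The RNA of most targets in the ATF4 branch of the stress response was higher with TVB-3166. Of 28 targets tested, 19 were higher and 2 lower than in doxorubicin cells (median 0.67). PCK2, the mitochondrial phosphoenolpyruvate carboxykinase, had 150.2, 158, and 176 CPM against 50.9, 67.3, and 50.7 CPM (1.52 ± 0.11 SE, adjusted p = 9.71e-07). NUPR1, a stress-induced chromatin protein, had 485, 443, and 427 CPM against 175, 203, and 153 CPM (1.35 ± 0.11 SE, adjusted p = 1.46e-06). VLDLR, a lipoprotein receptor, and PSAT1, of serine synthesis, differed by 1.13 ± 0.10 (SE, adjusted p = 3.02e-06) and 0.97 ± 0.09 (SE, adjusted p = 4.66e-06). The transcript of ATF4 itself differed by 0.90, and the lower genes were the amino acid transporter pair SLC7A5 (-0.27) and SLC3A2 (-0.37), with 0 to 2 lower genes when 1 library was left out. Against untreated cells the counts were 19 higher and 1 lower of 28, median 0.69 with TVB-3166 and 9 higher and 7 lower of 28, median 0.10 with doxorubicin. Endoplasmic reticulum chaperones and sensors, which belong to other branches, gave 6 higher and 5 lower of 19 (2 to 5 lower when 1 library was left out; median -0.05), with the chaperone HSPA5 at -0.05 and not passing. The sensor ERN1 differed by 0.73, ATF6 by 0.48, XBP1 by 0.63 and DNAJB11 by -0.41.

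The promoter of ASNS, asparagine synthetase and a classical ATF4 target, is shown because its known response element can be read in it. ASNS had 324, 316, and 286 CPM with TVB-3166 against 139, 169, and 129.7 CPM with doxorubicin (1.08 ± 0.10 SE, adjusted p = 5.81e-06). The sequence is from RefSeq, GRCh38.p14, chr7:97872359-97872658, minus strand, written from 250 bases before the start to 50 after it, and the capitals mark TGATGNAA, searched on both strands and starting 68 bases before the start. These letters were in the promoters of 4 of 22 ATF4 targets (18.2%) and of 1.58% of 10699 tested genes with a promoter of this length in the table.

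ASNS: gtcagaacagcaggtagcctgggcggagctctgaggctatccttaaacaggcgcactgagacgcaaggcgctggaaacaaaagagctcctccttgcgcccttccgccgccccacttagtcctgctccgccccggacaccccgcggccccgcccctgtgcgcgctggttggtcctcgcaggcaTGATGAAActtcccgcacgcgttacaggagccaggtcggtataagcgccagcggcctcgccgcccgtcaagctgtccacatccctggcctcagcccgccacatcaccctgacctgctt

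Glycine and one-carbon enzymes divided, with 5 of 17 higher and 6 lower (median 0.03). CBS, which starts cysteine synthesis from homocysteine, had 59.3, 75.2, and 77.7 CPM with TVB-3166 against 23.6, 30.2, and 25.6 CPM with doxorubicin (1.42 ± 0.12 SE, adjusted p = 2.15e-06), and ALDH1L1 differed by 0.87. GLDC, the glycine decarboxylase, was lower with TVB-3166 (-1.14 ± 0.12 SE, adjusted p = 1.38e-05), as was the serine hydroxymethyltransferase SHMT1 (-0.84 ± 0.12 SE, adjusted p = 1.12e-04), and both drugs had lowered both genes from the untreated level.

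NRF2 targets, the antioxidant and iron-handling genes, gave 11 higher and 5 lower of 22 (median 0.33). The lower genes were 3 without TVB-3166 replicate 3, doxorubicin replicate 1 or doxorubicin replicate 2, and all 24 libraries in 1 fit gave 7 higher and 3 lower. FTL, the ferritin light chain, had 351, 336, and 311 CPM with TVB-3166 against 147, 179, and 126 CPM with doxorubicin (1.14 ± 0.12 SE, adjusted p = 8.57e-06), and ME1, which makes NADPH, differed by 0.65 ± 0.10 (SE, adjusted p = 1.76e-04). HMOX1, which breaks down heme, had 119.6, 89.8, and 76.1 CPM against 211, 181, and 193 CPM and 36.2, 35.2, and 30.7 CPM in untreated cells, so that both drugs stood above untreated and doxorubicin was the higher (-1.04 ± 0.13 SE, adjusted p = 5.81e-05). TXNRD1, a thioredoxin reductase, differed by -0.67 ± 0.09 (SE, adjusted p = 8.75e-05).

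Genes of the aryl hydrocarbon receptor (AhR), which senses planar aromatic ligands, were lower with TVB-3166 in 6 of 9 tested and higher in 2 (median -0.55), or in 3 and 1 with all 24 libraries in 1 fit. CYP1A1, the most induced monooxygenase of this pathway, had 137, 194, and 184 CPM in TVB-3166 cells, 1562, 1912, and 1925 CPM in doxorubicin cells and 54.1, 376, and 98.9 CPM in untreated cells. The untreated libraries were spread widely and enclosed the TVB-3166 values, and every doxorubicin library lay above both groups (-3.39 ± 0.14 SE, adjusted p = 2.12e-08). CYP1A2, its neighbour, had 0.301, 0.348, and 0.274 CPM against 6.78, 8.95, and 7.44 CPM (-4.63 ± 0.24 SE, adjusted p = 8.22e-08). The pair lies at chr15:75011883-75048948 (GRCh37), on opposite strands. CYP1B1 had 424, 686, and 541 CPM against 922, 1036, and 1082 CPM (-0.88 ± 0.14 SE, adjusted p = 3.34e-04), and UGT1A6, whose last exons are shared with other UGT1A transcripts, differed by -1.86 ± 0.27 (SE, adjusted p = 1.51e-04). Without untreated replicate 2, the highest of its group, TVB-3166 gave 1.17 (adjusted p = 0.00134) over untreated cells for CYP1A1, in place of -0.03. The 2 higher genes were the receptor AHR (0.34) and its partner ARNT (0.24); ARNT did not pass without TVB-3166 replicate 1 or doxorubicin replicate 1 (0.23 in either case).

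Most interferon-stimulated genes tested were raised over untreated cells by each drug. Where the drugs differed, more of these genes were lower than higher with TVB-3166. Over untreated cells the counts were 17 higher and 1 lower of 22, median 1.52 with TVB-3166 and 17 higher and 3 lower of 22, median 1.78 with doxorubicin. Between the drugs 3 of 22 (15 more of the list had no row) were higher with TVB-3166 and 9 lower (median -0.35). OAS1, an oligoadenylate synthetase that senses double-stranded RNA, had 43.8, 46.6, and 41.8 CPM with TVB-3166, 15.8, 22.9, and 14.4 CPM with doxorubicin and 1.76, 4.40, and 2.67 CPM in untreated cells (1.31 ± 0.14 SE, adjusted p = 1.62e-05). ISG20, an exonuclease of viral RNA, had 49.9, 41.4, and 39.6 CPM against 19.2, 20.5, and 13.5 CPM, around an untreated level of 26, 31.1, and 24.6 CPM (1.29 ± 0.14 SE, adjusted p = 1.80e-05). SAMD9, an antiviral restriction factor, had 9.60, 7.97, and 7.26 CPM with TVB-3166 and 21.5, 21.2, and 20.4 CPM with doxorubicin, both above 1.85, 2.11, and 2.52 CPM in untreated cells (-1.35 ± 0.13 SE, adjusted p = 4.67e-06). The ubiquitin ligase DTX3L was likewise higher with doxorubicin (-0.86 ± 0.11 SE, adjusted p = 6.99e-05), with its partners PARP9 (-0.55) and PARP14 (-0.92). The remaining lower genes were HERC6 (-1.15), IFITM1 (-1.18), IFITM3 (-0.82), OAS3 (-0.48) and LGALS3BP (-0.32). The OAS genes are neighbours at chr12:113343661-113449528 (GRCh37): OAS1 and OAS2, the outer genes, were higher with TVB-3166 by 1.31 and 1.00, while OAS3, which lies between them, was lower by 0.48 ± 0.08. Among 23 sensors and signalling genes 6 were higher and 5 lower (median -0.11; 3 to 8 lower when 1 library was left out), among them IFNGR2 (0.86), IRF9 (0.55) and IRF7 (0.75) on the TVB-3166 side and IRF1 (-0.92) and EIF2AK2 (-0.42) on the other.

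Genes of MHC class I presentation, the display of peptides to T cells, were divided between lower levels with TVB-3166 and values that did not pass, with few higher. Of 19 tested, 8 were lower with TVB-3166 and 2 higher (median -0.24, or -0.08 without doxorubicin replicate 3), and with all 24 libraries in 1 fit 5 were lower and 0 higher. PSMB9, an immunoproteasome subunit, had 0.903, 0.854, and 0.788 CPM with TVB-3166, 4.29, 5.05, and 4.20 CPM with doxorubicin and 0.948, 0.84, and 0.801 CPM in untreated cells. TVB-3166 and untreated libraries overlapped, and doxorubicin stood above both (-2.41 ± 0.22 SE, adjusted p = 3.83e-06). PSMB8, its partner subunit, had 6.19, 7.21, and 6.51 CPM against 19.6, 22.8, and 19.9 CPM (-1.65 ± 0.12 SE, adjusted p = 1.04e-06). The third immunoproteasome subunit gene PSMB10 (0.12, or 0.33 with an adjusted p of 0.0297 without doxorubicin replicate 2) and the proteasome activator gene PSME1 (0.08) did not pass, while the activator partner PSME2 was lower (-0.31, adjusted p = 0.0592 with all 24 libraries in 1 fit). The peptide transporter genes TAP1 and TAP2 differed by -0.90 ± 0.10 (SE, adjusted p = 2.60e-05) and -0.99 ± 0.12 (SE, adjusted p = 2.69e-05). TAP2, PSMB8, TAP1 and PSMB9 lie together at chr6:32789610-32827628 (GRCh37), where annotated transcripts on opposite strands overlap, and the strand setting of the counting is not stated. ERAP2, which trims peptides, was lower by 2.1 ± 0.39, and HLA-B, which can share reads with near-identical class I genes, by 0.55 ± 0.12. The light chain B2M (0.07), the peptide editor TAPBP (0.02) and the class I activator NLRC5 (-0.03) did not pass, and HLA-E (0.22) and CALR (0.26) were the 2 higher genes. HLA-E did not pass without TVB-3166 replicate 1, TVB-3166 replicate 3, doxorubicin replicate 1 or doxorubicin replicate 3 (0.20 to 0.23), and CALR did not pass without TVB-3166 replicate 3, doxorubicin replicate 1, doxorubicin replicate 2 or doxorubicin replicate 3 (0.22 to 0.28).

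Promoters of 4 of these genes are shown because they hold the same interferon-response letters and their genes differed in direction between the drugs. ISG20 was higher with TVB-3166, SAMD9 and TAP2 were lower, and TAPBP, at 273, 269, and 283 CPM and 273, 261, and 278 CPM, lay within the spread of its replicates. The sequences are from RefSeq, GRCh38.p14, each from 250 bases before the start to 50 after it: ISG20 at chr15:88638766-88639065, plus strand, SAMD9 at chr7:93117930-93118229, minus strand, TAP2 at chr6:32838690-32838989, minus strand and TAPBP at chr6:33314029-33314328, minus strand. Capitals mark GAAA followed after any 2 bases by GAAA (the core of the interferon-stimulated response element), searched on both strands, with matches that start 69, 136, 58 and 20 bases before the start; in TAPBP 2 matches overlap. The letters were in the promoters of 14 of 18 interferon-stimulated genes (77.8%) and 8 of 15 MHC class I genes (53.3%), and in 2.68% of the 10699 promoters of tested genes.

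ISG20: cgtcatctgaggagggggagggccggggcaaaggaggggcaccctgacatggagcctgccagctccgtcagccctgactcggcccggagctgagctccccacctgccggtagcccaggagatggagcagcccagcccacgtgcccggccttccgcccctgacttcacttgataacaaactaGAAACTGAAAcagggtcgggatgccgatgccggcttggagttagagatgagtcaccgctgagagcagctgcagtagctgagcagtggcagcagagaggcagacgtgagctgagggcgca

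SAMD9: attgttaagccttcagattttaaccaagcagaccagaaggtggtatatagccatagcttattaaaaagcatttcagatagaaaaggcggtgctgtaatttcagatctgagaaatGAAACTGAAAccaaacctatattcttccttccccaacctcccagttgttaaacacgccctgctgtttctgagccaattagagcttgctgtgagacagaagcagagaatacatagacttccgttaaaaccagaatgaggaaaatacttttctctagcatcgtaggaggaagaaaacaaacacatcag

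TAP2: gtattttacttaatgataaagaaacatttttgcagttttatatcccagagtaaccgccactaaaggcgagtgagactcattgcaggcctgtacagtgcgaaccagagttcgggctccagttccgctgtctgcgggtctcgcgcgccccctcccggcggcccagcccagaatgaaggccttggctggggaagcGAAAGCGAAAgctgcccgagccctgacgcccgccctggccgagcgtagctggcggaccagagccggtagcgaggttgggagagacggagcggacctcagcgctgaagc

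TAPBP: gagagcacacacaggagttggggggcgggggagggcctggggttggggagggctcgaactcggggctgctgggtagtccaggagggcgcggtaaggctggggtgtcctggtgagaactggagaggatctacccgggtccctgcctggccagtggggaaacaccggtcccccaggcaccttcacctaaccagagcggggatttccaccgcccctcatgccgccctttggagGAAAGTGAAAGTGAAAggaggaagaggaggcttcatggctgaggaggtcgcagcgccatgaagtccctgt

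**Figure D2:**
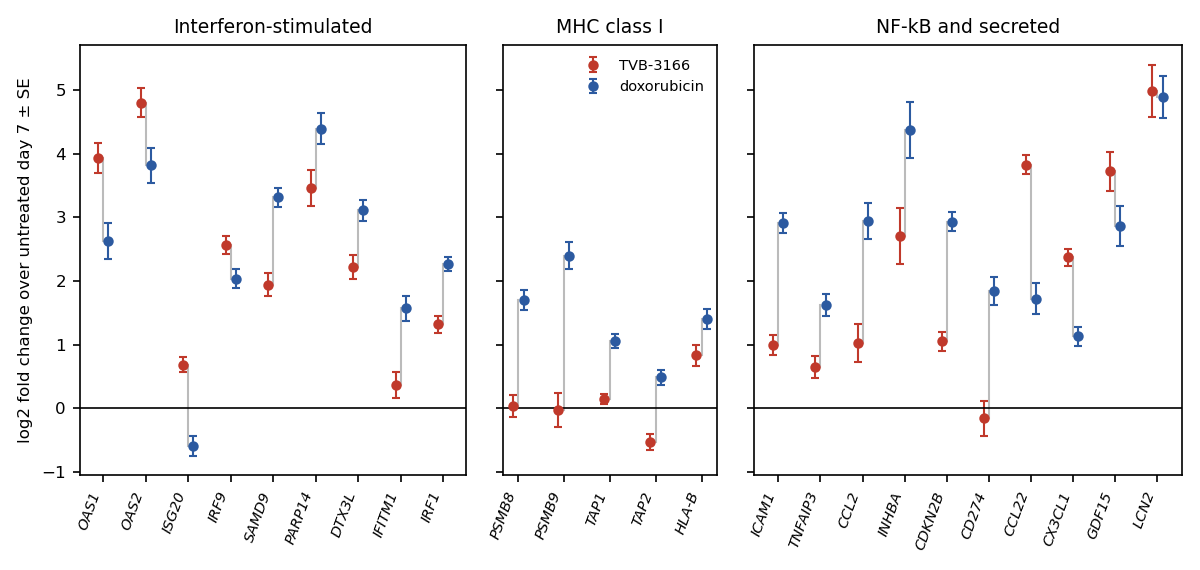
Log2 fold change over untreated day-7 cells (vertical axis, with SE) for interferon, MHC class I, and NF-κB and secreted genes after TVB-3166 and doxorubicin. PSMB8, PSMB9 and CD274 lie near 0 with TVB-3166, at 0.03, -0.03 and -0.16, and at 1.70, 2.40 and 1.84 with doxorubicin.

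Of 23 NF-κB target and feedback genes, 10 were lower in TVB-3166 cells and 0 higher by edgeR (median -0.23, or -0.14 without TVB-3166 replicate 2), with 0 higher also at an unadjusted p under 0.05 and by DESeq2. ICAM1, the adhesion molecule for leukocytes, had 9.60, 9.96, and 8.39 CPM with TVB-3166, 34.8, 28.1, and 41.4 CPM with doxorubicin and 4.10, 5.27, and 4.72 CPM in untreated cells. The 3 groups did not overlap, and doxorubicin was the highest (-1.90 ± 0.14 SE, adjusted p = 1.02e-06). TNFAIP2 differed by -1.58 ± 0.12 (SE, adjusted p = 1.20e-06), the feedback deubiquitinase TNFAIP3 by -0.95 ± 0.15 (SE, adjusted p = 2.89e-04) and the mitochondrial superoxide dismutase SOD2 by -0.54 ± 0.08 (SE, adjusted p = 2.24e-04). The subunits NFKB1 (-0.14), NFKB2 (-0.21), RELA (-0.05) and RELB (0.02) did not pass. Against untreated cells the counts were 10 higher and 3 lower of 23, median 0.27 with TVB-3166 and 16 higher and 0 lower of 23, median 0.57 with doxorubicin.

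Most secreted factors of senescent cells tested were raised over untreated cells by each drug. Over untreated cells the counts were 14 higher and 2 lower of 24 (median 0.64) with TVB-3166. With doxorubicin they were 18 higher and 0 lower of 24 (median 1.28). Between the drugs, 6 of 24 were higher and 9 lower with TVB-3166 (median -0.42). Of the 46 listed, 22 had no row, among them IL6, IL1A, IL1B and CXCL8. CCL22, a chemokine that attracts regulatory and memory T cells, had 24.9, 26.5, and 25.7 CPM with TVB-3166, 7.13, 6.47, and 4.05 CPM with doxorubicin and 1.65, 2.26, and 1.54 CPM in untreated cells (2.12 ± 0.17 SE, adjusted p = 1.48e-06). CX3CL1, a membrane-bound chemokine, had 219.6, 219.7, and 211 CPM against 110.3, 77.5, and 83.2 CPM (1.26 ± 0.12 SE, adjusted p = 4.18e-06). GDF15, a stress cytokine, had 42.5, 37.6, and 43.4 CPM against 26.4, 21.8, and 18.7 CPM and 1.85, 5.50, and 2.14 CPM in untreated cells (0.88 ± 0.12 SE, adjusted p = 9.57e-05). On the doxorubicin side, CCL2, which attracts monocytes, had 3.58, 5.38, and 6.13 CPM against 23, 12.5, and 20.9 CPM (-1.90 ± 0.23 SE, adjusted p = 3.53e-05), and HBEGF, a ligand of EGFR, 2.14, 1.96, and 1.27 CPM against 8.93, 6.62, and 7.92 CPM (-2.13 ± 0.22 SE, adjusted p = 8.96e-06). STC1 (-2.38), IGFBP3 (-1.85) and INHBA (-1.64) were among the other lower genes. LCN2, the siderophore-binding lipocalin, was raised by both drugs, by 4.98 and 4.89, to 12.2, 23.3, and 22 CPM with TVB-3166 and 16.7, 19.2, and 17.3 CPM with doxorubicin. Those libraries overlapped, and the difference of 0.11 did not pass (adjusted p = 0.649); without TVB-3166 replicate 1, the lowest of its group for this gene, it was 0.36 (adjusted p = 0.0243).

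The inhibitors of cyclin-dependent kinases diverged. CDKN1A (p21) had 47.2, 36.1, and 39.6 CPM with TVB-3166, 20.8, 19.2, and 17.4 CPM with doxorubicin and 10.8, 9.87, and 14.9 CPM in untreated cells, with no overlap among the 3 groups (1.09 ± 0.12 SE, adjusted p = 1.17e-05). CDKN2B (p15) was higher with doxorubicin, at 17.3, 20.8, and 22.9 CPM with TVB-3166, 76.8, 58.2, and 86.6 CPM with doxorubicin and 8.22, 10.7, and 10.7 CPM in untreated cells (-1.86 ± 0.14 SE, adjusted p = 1.11e-06). CDKN2A, which encodes p16, was lower with TVB-3166 (-0.80), and CDKN1B (p27) was higher (0.27); CDKN1B did not pass without TVB-3166 replicate 1, doxorubicin replicate 1 or doxorubicin replicate 2 (0.24 to 0.27). CD274, which encodes the immune checkpoint ligand PD-L1, had 1.57, 2.72, and 3.01 CPM with TVB-3166 against 10.2, 7.55, and 11.2 CPM with doxorubicin, and 2.38, 2.23, and 3.59 CPM in untreated cells (-1.98 ± 0.23 SE, adjusted p = 2.63e-05). LMNB1, the lamin whose loss marks senescent nuclei, had 32, 24.2, and 25.3 CPM against 39.9, 46.6, and 44.1 CPM, both under 80.03, 66.5, and 79.8 CPM in untreated cells (-0.68 ± 0.11 SE, adjusted p = 3.79e-04). Of 12 genes in this list, 2 were higher and 5 lower (median -0.11). In the BCL-2 family of apoptosis regulators, 6 of 16 were higher and 4 lower (median 0.14); the death-promoting BBC3 and BIK were at 1.59 and 1.51, and BID and BMF at -0.76 and -0.55.

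Cell-cycle genes were lower in TVB-3166 than in doxorubicin cells almost throughout. Of 43 S phase genes 38 were lower and none higher (median -0.77), and of 54 G2/M genes 47 were lower and 1, PSRC1 (0.49), higher (median -0.68). No S phase gene was higher at an unadjusted p under 0.05 (0) or by DESeq2 (0), which called 37 lower. CDC6, which loads the replicative helicase, had 133, 123, and 122 CPM with TVB-3166, 299, 339.7, and 350.4 CPM with doxorubicin and 393, 360.5, and 434 CPM in untreated cells. Its TVB-3166 libraries lay under all others (-1.39 ± 0.09 SE, adjusted p = 3.31e-07), whereas doxorubicin against untreated gave -0.24 (adjusted p = 0.061), which passed only without untreated replicate 2 (-0.32; adjusted p = 0.0229) or doxorubicin replicate 3 (-0.30; adjusted p = 0.0488). MKI67, the proliferation marker, had 103, 70.3, and 89.5 CPM, 220.4, 195, and 240.0 CPM and 342, 244, and 245 CPM in the same order (-1.32 ± 0.13 SE, adjusted p = 5.46e-06). KIF23, a motor of cytokinesis, had 35.6, 27.4, and 28.2 CPM against 69.4, 67.5, and 75.5 CPM (-1.22 ± 0.11 SE, adjusted p = 2.69e-06), with 83.6, 75.5, and 83.7 CPM in untreated cells. DTL, FEN1, ANP32E and KIF20B gave log2 fold changes of -1.29, -1.15, -1.25 and -1.20. Over untreated cells, S phase genes were 0 higher and 43 lower of 43, median -1.44 with TVB-3166, and 0 higher and 34 lower of 43, median -0.51 with doxorubicin. For G2/M genes the counts were 1 higher and 52 lower of 54, median -1.29 and 0 higher and 46 lower of 54, median -0.45.

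The promoter of KIF23 is shown as an example of the cell-cycle letters shared by the G2/M genes. It is from RefSeq, GRCh38.p14, chr15:69414099-69414398, plus strand, with TTTGAA, searched on both strands, in capitals and starting 55 bases before the start. TTTGAA was in the promoters of 31 of 45 G2/M genes (68.9%), against 9.49% of the 10699 promoters of tested genes. A pair of other motifs was searched on both strands in the same windows. TTTNGCGC, the E2F letters, was in 9 of 33 S phase promoters (27.3%, against 3.06% of tested genes), and TCACNCCAC, the SREBP letters, was in 0 of 15 promoters of cholesterol synthesis enzymes and 1 of 12 of SREBP control and LDL uptake (8.33%, against 1.04%).

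KIF23: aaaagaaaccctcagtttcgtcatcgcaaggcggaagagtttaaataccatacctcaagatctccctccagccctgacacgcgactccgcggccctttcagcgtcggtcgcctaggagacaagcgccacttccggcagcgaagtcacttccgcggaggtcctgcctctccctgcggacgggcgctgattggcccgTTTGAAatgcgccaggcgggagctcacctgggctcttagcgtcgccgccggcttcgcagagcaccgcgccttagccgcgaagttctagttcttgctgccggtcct

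Genes of DNA repair were likewise lower. Of 45 genes of DNA damage response and repair, 33 were lower in TVB-3166 cells and 0 higher (median -0.57); 1 was higher at an unadjusted p under 0.05, 0 by DESeq2 and 1 without TVB-3166 replicate 1. The list shares 7 members with the S phase list, EXO1, BLM and CLSPN among them, and of the 38 others 26 were lower and 0 higher (median -0.47). XRCC2, of homologous recombination, had 4.62, 4.43, and 3.73 CPM with TVB-3166, 14.1, 12.2, and 15.2 CPM with doxorubicin and 12, 10.7, and 11.2 CPM in untreated cells (-1.70 ± 0.15 SE, adjusted p = 3.25e-06). The exonuclease EXO1, the helicase BLM and the checkpoint adaptor CLSPN differed by -1.50 ± 0.12 (SE, adjusted p = 1.48e-06), -1.50 ± 0.12 (SE, adjusted p = 1.30e-06) and -1.43 ± 0.13 (SE, adjusted p = 3.21e-06). BRCA2 was lower by 1.45 ± 0.15, and the kinase ATM (0.14) did not pass. Against untreated cells the counts were 0 higher and 36 lower of 45, median -0.96 in TVB-3166 cells and 3 higher and 23 lower of 45, median -0.28 in doxorubicin cells. Genes of MYC and ribosome assembly were lower in 22 of 31 and higher in 0 (median -0.46; 1 higher at an unadjusted p under 0.05, 0 by DESeq2). TCOF1, which drives ribosomal RNA transcription, had 91.2, 91, and 102 CPM with TVB-3166 against 203, 207, and 208 CPM with doxorubicin (-1.12 ± 0.08 SE, adjusted p = 7.27e-07), MYC had 94.4, 79.3, and 99.1 CPM against 224, 172, and 188 CPM (-1.10 ± 0.11 SE, adjusted p = 8.48e-06), and for both the doxorubicin and untreated libraries overlapped.

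Surface and barrier genes of the epithelium gave 16 higher and 7 lower of 28 (median 0.45). S100P, a calcium-binding protein, had 369.8, 340.5, and 358 CPM with TVB-3166, 82, 92.9, and 63.6 CPM with doxorubicin and 64.5, 98.3, and 71.4 CPM in untreated cells (2.16 ± 0.12 SE, adjusted p = 1.55e-07). S100A6 had 1449, 1214, and 1216 CPM against 490.2, 505, and 384 CPM, on either side of 913, 836, and 841 CPM in untreated cells (1.49 ± 0.12 SE, adjusted p = 1.48e-06), and S100A8, an alarmin subunit, 4.58, 5.57, and 3.77 CPM against 17.6, 22.3, and 19.8 CPM (-2.1 ± 0.16 SE, adjusted p = 1.04e-06). The S100 genes of the cluster at chr1:153330330-153589462 (GRCh37) fell on both sides, with S100A4 (1.17), S100A14 (1.16) and S100A16 (1.34) higher and S100A7 (-2.19) and S100A9 (-1.33) lower in TVB-3166 cells. CEACAM6, which is similar in sequence to CEACAM5, was higher by 1.11. The immunoglobulin carrier PIGR, the tight junction protein CLDN1 and MUC20 were lower by 1.35 ± 0.24, 1.44 ± 0.19 and 1.08 ± 0.14. Of 24 luminal and keratin genes 9 were higher and 8 lower (median -0.04). KRT81, a hair-type keratin, had 3100, 2409, and 2573 CPM with TVB-3166 against 717, 713, and 536 CPM with doxorubicin (2.04 ± 0.13 SE, adjusted p = 4.34e-07). KRT86 had 134, 110.4, and 131 CPM against 24.4, 25.4, and 19.4 CPM; the annotated KRT86 locus spans KRT81 at chr12:52643084-52702947 (GRCh37), the coding sequences are near-identical, and their reads may be shared. KRT17, a stress keratin, was lower with TVB-3166 (-2.22 ± 0.21 SE, adjusted p = 5.81e-06) and KRT23 higher (1.20 ± 0.12 SE, adjusted p = 7.08e-06).

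Actin and contractile genes gave 4 higher and 9 lower of 25 (median -0.10). ACTA2, the smooth muscle actin, had 1.50, 2.25, and 1.34 CPM with TVB-3166 against 11.6, 9.07, and 9.34 CPM with doxorubicin (-2.56 ± 0.21 SE, adjusted p = 1.84e-06). The crosslinkers FLNA and ACTN1 differed by -1.31 ± 0.12 (SE, adjusted p = 3.87e-06) and -0.82 ± 0.08 (SE, adjusted p = 5.81e-06), and CNN3 by 0.96 ± 0.08 (SE, adjusted p = 1.91e-06). CDH5, a cadherin best known from endothelium, had 6.69, 8.92, and 9.69 CPM against 37.7, 37.8, and 47 CPM and 2.42, 5.50, and 3.95 CPM in untreated cells (-2.27 ± 0.14 SE, adjusted p = 3.16e-07). CD68, a lysosomal protein used as a macrophage marker, had 25.6, 29.6, and 30.3 CPM against 9.23, 9.89, and 10.2 CPM (1.54 ± 0.11 SE, adjusted p = 7.34e-07). CSF1R, the other of the 2 leukocyte markers tested, went the opposite way and was lower with TVB-3166 (-0.92).

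The genes around ERBB2 did not move as a block. Of 15 genes of 17q12 tested, 5 were higher and 5 lower with TVB-3166 (median -0.04). In the stretch chr17:37782993-38020565 (GRCh37), in order, PPP1R1B was at -2.56, STARD3 at 0.15, PGAP3 at 0.89, ERBB2 at 0.53, MIEN1 at 1.10, GRB7 at 0.58 and IKZF3 at -1.72; STARD3 did not pass. PPP1R1B, a phosphatase inhibitor, had 4.05, 2.88, and 2.91 CPM with TVB-3166 against 17.8, 24.1, and 16.2 CPM with doxorubicin (-2.56 ± 0.19 SE, adjusted p = 9.35e-07), and MIEN1, which overlaps ERBB2 on the other strand, 390.0, 379.7, and 359 CPM against 171, 209, and 145 CPM (1.10 ± 0.12 SE, adjusted p = 1.14e-05). Among 11 ERBB receptors and ligands 4 were higher and 3 lower (median 0.06), with EGF at 0.70, LRIG1 at 0.74 and EGFR at -0.84.

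Lysosomal genes gave 13 higher and 4 lower of 33 (median 0.20), with the acid lipase LIPA at 0.78, CD63 at 0.71, HEXA at 0.75 and GLA at -1.02. GLB1, the enzyme behind senescence-associated β-galactosidase staining, did not pass between the drugs (0.17). Glycolysis and pyruvate entry gave 13 higher and 5 lower of 31 (3 lower without TVB-3166 replicate 2 or doxorubicin replicate 1; median 0.14), with the pyruvate carrier MPC1 at 1.07, ALDOC at 1.08, ALDOA at 0.93 and HK2 at 0.66. Values in this list ran from -0.91 to 1.20. Relative to untreated cells, 7 were higher and 17 lower of 31 with TVB-3166 (median -0.33), and 3 and 22 with doxorubicin (median -0.39). Among all genes tested, 25.4% were higher and 26.1% lower with TVB-3166, and 21.9% and 21.5% with doxorubicin. Of 13 mRNAs of mitochondrial DNA 1 was higher (COX2, 0.59) and 3 were lower (COX1, -0.45; ND6, -0.44; ND4L, -0.48). With all 24 libraries in 1 fit 0 were higher and 0 lower, also at an unadjusted p under 0.05, and the number lower was 0 to 8 when 1 library was left out (8 without TVB-3166 replicate 1; median over the 13, -0.22). Histone genes, replication-independent variants and some linker and core histones, gave 3 higher and 6 lower of 18 (median -0.11; 1 to 3 higher and 1 to 6 lower when 1 library was left out), with the linker histone H1-2 at -0.98 ± 0.12 (SE, adjusted p = 3.75e-05). The labels name an mRNA kit and the study's methods a total RNA kit, and the part of the kit in histone values was not tested. Imprinted genes gave 2 higher and 3 lower of 12 (1 to 3 and 1 to 3 when 1 library was left out; median 0.09). H19, an imprinted non-coding RNA, had 0.803, 1.33, and 0.822 CPM with TVB-3166 and 4.75, 4.68, and 4.54 CPM with doxorubicin, against 64.5, 40.7, and 59.8 CPM in untreated cells. Both drugs were far under the untreated libraries, and TVB-3166 was the lower (-2.23 ± 0.23 SE, adjusted p = 1.17e-05).

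Of the other genes that the study named in its account of these libraries, MYEOV (1.34), SDR16C5, a retinol dehydrogenase (1.79), PDP1, the pyruvate dehydrogenase phosphatase (1.20), and CAPN8 (0.91) were higher in TVB-3166 than in doxorubicin cells. CCDC3 (-2.93), FSD1 (-2.39), MED12L (-1.71) and CILP2 (-1.47) were lower. The study chose these genes on these samples, so their direction is not independent evidence. CCDC3 had 0.535, 0.474, and 0.445 CPM with TVB-3166, 2.56, 4.28, and 4.38 CPM with doxorubicin and 9.13, 14.7, and 11.7 CPM in untreated cells, an order without overlap.

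The difference between the drugs followed transcript length across the table. The 13256 tested genes with an annotated length were put in 8 classes of 1657 by their longest transcript. In the class of shortest transcripts (up to 1608 bases) the median log2 fold change was 0.15, with 25.4% of genes called higher and 11.8% lower. In the class of longest transcripts (7328 bases and over) it was -0.14, with 13.9% higher and 35.1% lower. The part of length in any single gene's value was not tested, and the list medians after removal of this trend are given in the last section. Levels in the other drug groups give the setting of a few genes. In the ND-646 cells, treated with an inhibitor of acetyl-CoA carboxylase, ABCG1 was 282 ± 31.5 CPM, FDPS 805 ± 516 CPM, ANGPTL4 0.429 ± 0.0388 CPM and CYP1A1 1005 ± 199 CPM (mean ± SD, n = 3). In the bleomycin cells the same genes were at 66.5 ± 12.8 CPM, 178 ± 26.2 CPM, 9.03 ± 1.54 CPM and 891 ± 203 CPM. These values are given side by side and were not tested.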

How the data were processed

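RNA of 24 SKBR3 samples was sequenced with a stranded Illumina library kit, and the authors deposited read counts per gene in 1 table. Per the labels and the study's methods, reads were demultiplexed with bcl2fastq and aligned to GRCh37 with HISAT2, and StringTie and DESeq2 were used downstream. The counter and its strand setting are not given in the sources used here, so overlapping genes and close paralogs are uncertain. Libraries were grouped by their labels. Counts were tested with edgeR 4.0.16 (filterByExpr, TMM, quasi-likelihood test) in R 4.3.3, on the 6 libraries of each comparison, with Benjamini-Hochberg adjustment over all genes tested and a threshold of 0.05. Levels are CPM with TMM factors over all 24 libraries. DESeq2 1.42.0, other filters and scalings, 24 libraries in 1 fit, a replicate block and each library left out were alternatives, and a transcript length correction was added after seeing the data. Total counts were 29626473 to 40842973 a library in these groups. Genes under 1 CPM rest on few reads and have the larger counting error. The fit was also run on counts simulated with the spread of these libraries. That simulation had far fewer changed genes than were called here, and its outcome is not reported.

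Named genes were the 10 largest differences in each direction with at least 5 CPM in the higher group and no overlap, the 5 largest with at least 100 CPM, the 4 smallest p-values of each list, the drug targets and the genes the study names; further list members are named to account for counts and were chosen after their values were seen. The members and lists were chosen with earlier results of these data known. Promoter sequences are from RefSeq (GRCh38.p14), and gene positions are on GRCh37. Some genes that these rules would name are not reported here.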

Additional observations from a re-analysis of the deposited data

How the results depend on the processing

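The counts of higher and lower genes stayed within 1.5 times of those reported under DESeq2, other scalings and filters, all 24 libraries in 1 fit and the day-0 reference. Only the fold threshold moved them. Counts within some lists moved more. Fewer genes were called across the whole table when all 24 libraries were in 1 fit. That fit called 2223 genes higher and 2479 lower of 14078 tested, where the main fit called 2988 and 3178 of 13857. The list counts of that fit are to be read beside these totals. All 24 libraries in 1 fit gave 1 higher and 3 lower for AhR targets, 7 and 3 for NRF2 targets, 0 and 5 for MHC class I, 0 and 0 for mitochondrial DNA, 2 and 3 for histones, 5 and 3 for endoplasmic reticulum chaperones, 5 and 2 for the BCL-2 family, 1 and 2 for imprinted genes and 19 and 0 for ATF4 targets. Other lists lost calls in this fit too. It gave 16 higher for cholesterol synthesis, 10 higher for lysosomal genes and 36 lower for G2/M genes. For NF-κB genes and for interferon-stimulated genes it gave 7 lower. At an unadjusted p under 0.05 and at least 2-fold, 429 genes were higher and 838 lower between the drugs, 995 and 844 for TVB-3166 against untreated cells and 970 and 244 for doxorubicin. With an adjusted p these were 424 and 816, 979 and 834, and 951 and 239, so that the share of higher calls between the drugs went from 48.5% to 34.2%. Leaving out 1 library gave 2332 to 2945 higher and 2484 to 3080 lower genes between the drugs, 2773 to 3421 and 2971 to 3526 for TVB-3166, and 2196 to 3049 and 2198 to 3031 for doxorubicin. Samples with the same replicate number did not deviate together in every pair (r of 0.055, -0.002 and 0.18 between the drugs). Against untreated cells these r were all positive, at 0.28, 0.22 and 0.049 for TVB-3166 and 0.25, 0.099 and 0.17 for doxorubicin. The replicate block gave 3130 higher and 3297 lower genes between the drugs, 3855 and 3930 for TVB-3166 and 3290 and 3230 for doxorubicin. No named gene changed direction between the drugs under the alternatives run. Against untreated cells, CYP1A1 with TVB-3166 ranged from -0.47 to 1.17 with 1 library left out, the highest without untreated replicate 2, and was 2.98 with day-0 cells as the reference. With the day-0 reference, TVB-3166 gave ALDOA -0.12, ID4 -0.066 and SLC3A2 -0.018, and doxorubicin gave ALDOC 0.066, ATF4 0.44, CBS 0.77, GJA5 0.69, GLA -0.30, MYC 0.46, SREBF1 0.53 and STARD4 0.52; the cause was not tested. With the length trend removed, the list median was 1.05 for cholesterol synthesis, 0.67 for ATF4 targets, -0.79 for S phase and -0.60 for DNA repair, and it moved past the spread between replicates for secreted factors (-0.49), NRF2 targets (0.25), triglyceride genes (0.05), RNA and DNA sensors (0.01) and doxorubicin handling (-0.10).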
